A study of Mus musculus with 14 samples.

Results

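The clustered protocadherins are cell-surface adhesion genes that lie in 3 neighbouring arrays, alpha, beta and gamma, on mouse chromosome 18. They were taken from the deposited tables by symbol alone (Pcdha, Pcdhac, Pcdhb, Pcdhga, Pcdhgb and Pcdhgc followed by a number). This gave 57 of the 55433 genes in the RNA table, namely 13 alpha, 22 beta and 22 gamma genes, and 24 of the 22470 gene bodies in the chromatin table, namely 1 alpha, 22 beta and 1 gamma. In the RefSeq annotation of the mm10 assembly the alpha genes span chr18:36930285-37188897, the beta genes chr18:37264998-37521419 and the gamma genes chr18:37661775-37841873. RefSeq lists a further alpha gene, Pcdha10, which was not analysed here.

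RNA came from C57BL/6 mouse tumor-derived cells at passages 6 to 8, carrying either a control guide RNA (sgControl, 3 libraries) or a guide RNA against Nsd3 (sgNSD3, 3 libraries). Nsd3 encodes an enzyme that methylates lysine 36 of histone H3. Chromatin was profiled by CUT&RUN, in which an antibody-tethered nuclease releases the DNA around a mark, with 4 libraries for H3K36me2, 2 for H3K27me3 and 2 for IgG; the labels of 1 IgG library disagree on its condition. The labels name no tumor type, so no set of defining markers could be checked against it, and they do not say whether the cells are a single clone or whether the libraries of a condition came from separate cultures. The p-values below therefore measure the spread between these libraries, which may be technical. Between replicates, the chi-square of the read counts per degree of freedom, which is about 1 for sampling noise alone, was 1.33 to 1.45 in sgNSD3 and 2.9 to 9.95 in sgControl. Replicate 1 of sgControl stood apart from replicates 2 and 3 (6.62 and 9.95), and the effect of leaving it out is given with the results. Pairs of libraries across the conditions had 7.39 to 8.32. Replicates 1 and 3 of sgControl thus differed more from each other than any sgControl library did from any sgNSD3 library.

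Each protocadherin isoform carries its own extracellular cadherin repeats, which bind the same isoform on an opposing cell. In neurons, individual cells choose a few alpha, beta and gamma isoforms, and the resulting set acts as a surface label by which branches of a cell recognise and avoid each other. Alpha and gamma genes each consist of a variable exon with its own promoter, spliced to constant exons that the whole array shares and that encode a common intracellular tail. Beta genes are single exons that lack such a tail. The C-type genes at the end of the alpha and gamma arrays (Pcdhac1, Pcdhac2, Pcdhgc3, Pcdhgc4, Pcdhgc5) are regulated differently from the others and are often used by whole cell populations. Promoter choice depends on CTCF and cohesin, and silent promoters carry DNA methylation.

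This gene structure bears on every count below. In RefSeq all alpha spans end within 1240 bases of each other, and all gamma spans within 1384 bases, because they run to the shared constant exons. Neither the handling of reads in those exons nor the strand setting of the counting is stated in the labels, headers or processing notes. Alpha and gamma counts are thus uncertain as to which isoform a read in shared exons came from, so their counts and shares are given as assigned in the deposited table and do not rank isoforms by expression. Beta genes do not overlap in this way, but near-identical stretches can still share reads.

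Recovered totals ran from 20294828 to 21863833 reads per library, of which the 57 protocadherins took between 4382 and 5247 reads, or 0.0213% to 0.0243%. Values below are normalized counts, meaning reads divided by the size factor of the library. The targeted gene, Nsd3, stood at 14570, 14400 and 14670 with the control guide, and the libraries labelled sgNSD3 stood higher, at 21990, 22010 and 21840. The ratio was 1.51 (limma adjusted p = 5.86e-14). Gene-level RNA does not show whether the guide disrupted the protein, so every direction below rests on the labels, and sgNSD3 stands for the libraries so labelled. By summed counts fibroblast markers were abundant (711900 to 812600 over 8 genes in any library) and epithelial ones less so (3352 to 5061 over 8 genes, Epcam at 0). Most of the fibroblast sum was Col1a1, Col1a2 and Col3a1. In sgControl Dcn averaged 2890 normalized counts, Pdgfra 2339, Pdgfrb 713, Thy1 58.5 and Lum 1.34. Most of the epithelial sum was Krt19. Of 12 neuronal markers 3 had enough reads to test, Snap25 was at 0, and Stmn2, Dcx, Gap43, Nefl, Nefm and Rbfox3 had at most 2.88 normalized counts in any library.

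Most protocadherin counts were assigned to the gamma cluster, and a single C-type gene held close to as many of them as all other gamma genes together. By library, gamma genes took 75.4% to 79% of protocadherin counts, beta genes 19.8% to 22.3% and alpha genes 1.03% to 2.3%. Pcdhgc3, a C-type gene, had 1849, 1963 and 1864 normalized counts in sgControl and 1940, 1966 and 1872 in sgNSD3, which is 46.9% to 53.8% of all gamma counts. Every gamma gene passed the filter of a mean of 8 normalized counts, against 13 of 22 beta and 4 of 13 alpha genes. No read was counted in any library for Pcdha1, Pcdha2, Pcdha3 and Pcdhb1, a count of 0 that allows up to 3 reads per library when counting error alone is considered.

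**Figure D1:**
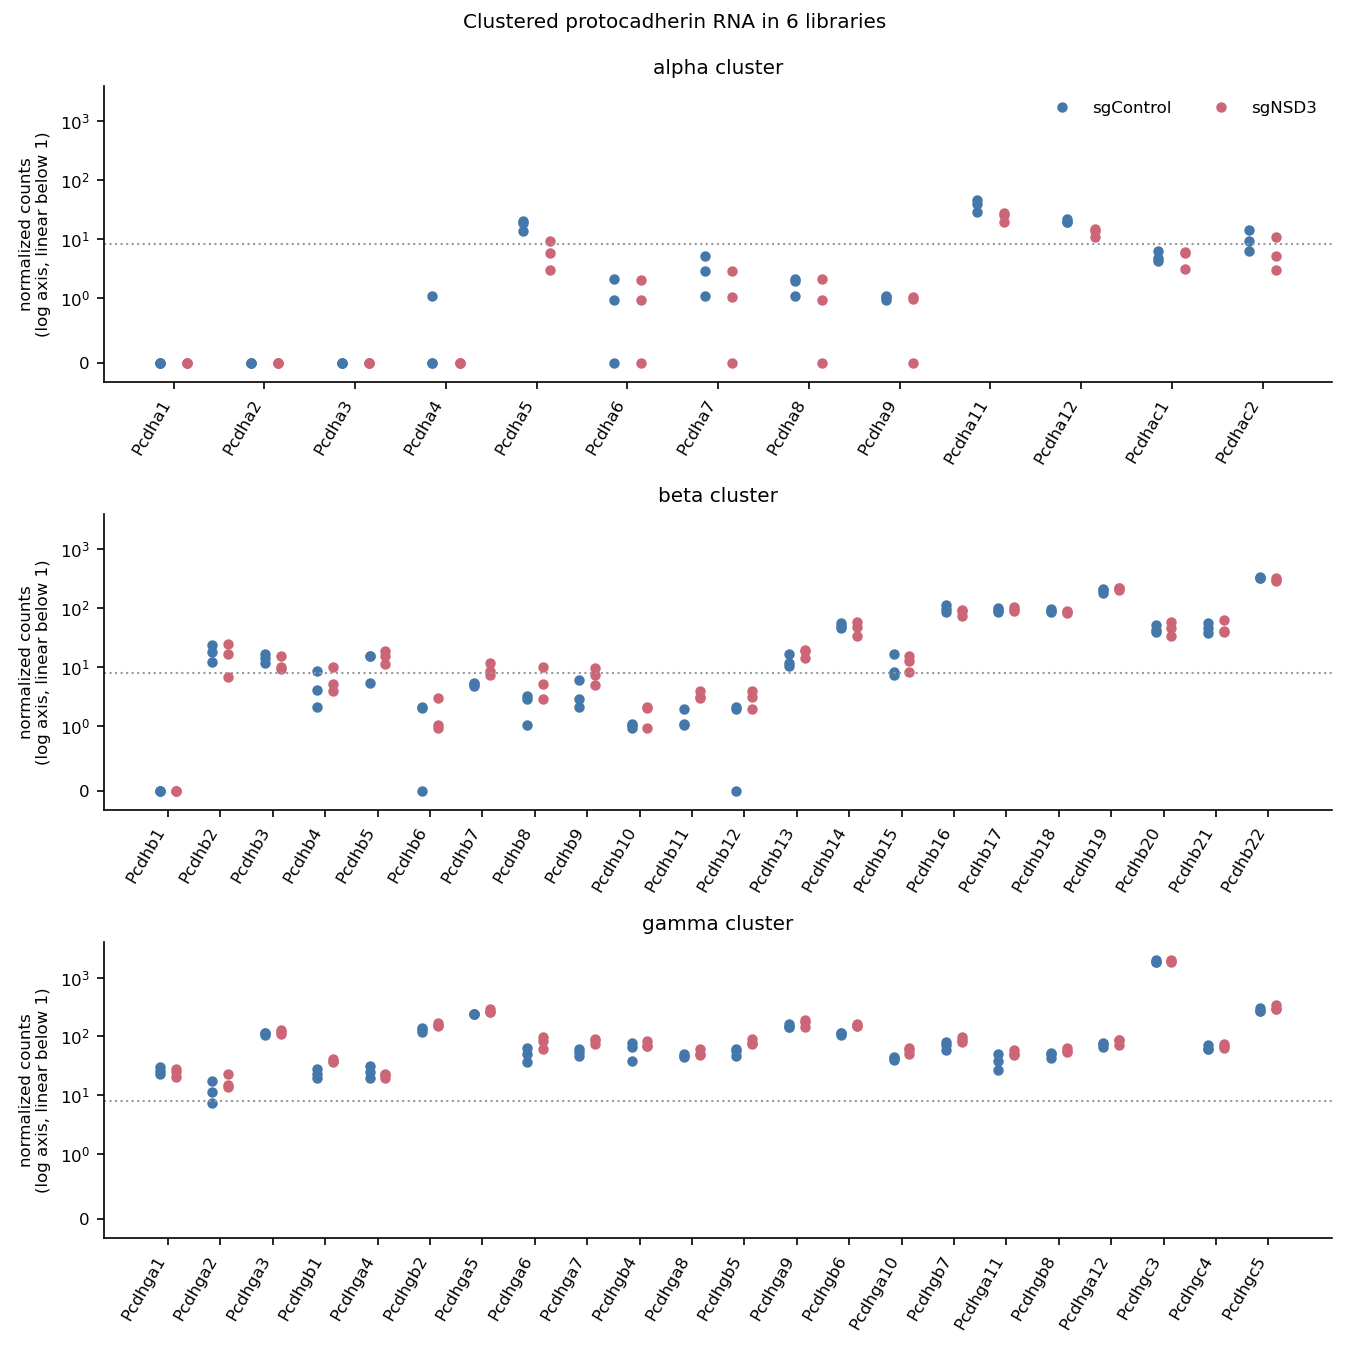
Normalized counts (logarithmic axis, linear below 1) of the 57 clustered protocadherins in genomic order, 1 panel per cluster, with 3 sgControl (blue) and 3 sgNSD3 (red) libraries as points. The dotted line marks the filter at 8 normalized counts. All gamma genes lie above it on average, Pcdhgc3 stands at 1849 to 1966, and most alpha genes lie near 0.

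Differences between the conditions were not alike in the 3 clusters. In the gamma cluster 5 of 22 tested genes rose and 0 fell, in the beta cluster 0 of 13 were called, and in the alpha cluster 1 of 4 fell and 0 rose (limma, adjusted p threshold 0.05). Over all 18263 genes tested, 5.44% were called higher and 6.44% lower, 11.9% in all. The median log2 difference was 0.27 for the 22 gamma genes and 0.02 for the 13 tested beta genes, beside 0.00071 for all tested genes. No median is given for the 4 tested alpha genes, because Pcdha5 and Pcdhac2 passed the filter through their sgControl libraries. Of the 13 beta genes none passed an unadjusted p of 0.05 either. These are bulk cultures, so a change in the number of cells that use an isoform cannot be told apart from a change in RNA per cell. In all, 12 of the 39 tested protocadherins had conditions that did not overlap, beside 28.5% of all tested genes. The difference between the clusters was not itself tested. Genes of the alpha array share exons, as do those of the gamma array, so the genes counted within each cannot be taken as independent.

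**Figure D2:**
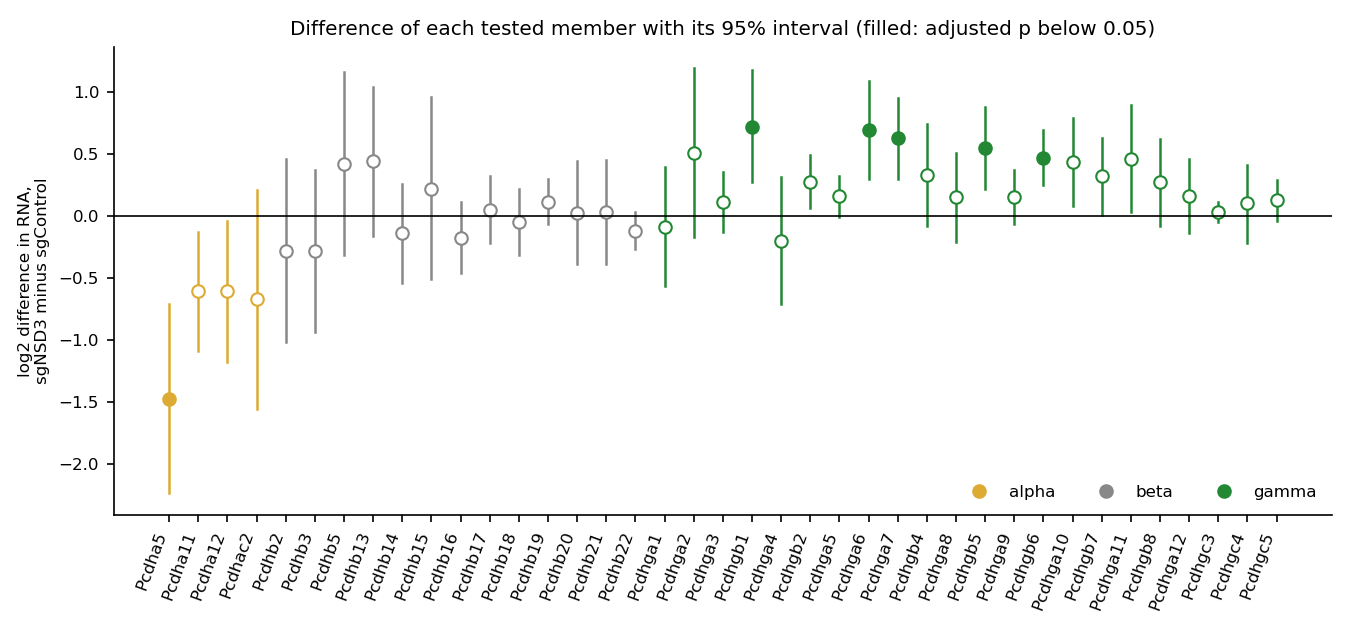
Difference in RNA between sgNSD3 and sgControl (log2 of normalized count + 1) for the 39 tested members in genomic order, with 95% intervals from limma. Filled points passed an adjusted p of 0.05: Pcdha5 below 0, and Pcdhgb1, Pcdhga6, Pcdhga7, Pcdhgb5 and Pcdhgb6 above 0.

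Among gamma genes the called rises lay in the A and B subfamilies, which make up the 19 genes ahead of the C-type genes in the array. Pcdhgb6 had 112, 104 and 112 normalized counts in sgControl, with replicates in the order 1, 2, 3 here and below, and 159, 149 and 148 in sgNSD3. All sgNSD3 libraries lay above all sgControl libraries, a 1.39-fold rise and a log2 difference of 0.47 ± 0.108 (SE; limma adjusted p = 0.00468). Pcdhga7 had 53.3, 46.9 and 60.9 in sgControl and 73.4, 86.3 and 89.9 in sgNSD3. The conditions again did not overlap, and the rise was 1.55-fold (log2 0.63 ± 0.156, SE; limma adjusted p = 0.00756).

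Pcdhgb5 had 46, 61.2 and 55.8 normalized counts in sgControl and 75.4, 74.8 and 89 in sgNSD3. Its rise was 1.47-fold, with no overlap (log2 0.55 ± 0.158, SE; limma adjusted p = 0.0206). Pcdhgb1 had 28.2, 19.1 and 22.3 in sgControl and 41.3, 38.4 and 36.2 in sgNSD3. It was the gamma gene with the largest difference on this scale, 1.66-fold (log2 0.72 ± 0.219, SE; limma adjusted p = 0.0276), and its sgControl libraries all lay below its sgNSD3 libraries. Pcdhga6 had 36.6, 62.2 and 49.7 in sgControl and 97.1, 61.4 and 82.1 in sgNSD3. Here the highest sgControl library lay just above the lowest sgNSD3 library, and the rise was 1.62-fold (log2 0.69 ± 0.192, SE; limma adjusted p = 0.0147).

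These calls depended on single libraries, except that of Pcdhgb6, which held in all 6 fits that left out a library. Without sgNSD3 replicate 3 Pcdhgb6 was the only gamma gene called, and 3.6% of all tested genes were then called higher. Without sgControl replicate 1, sgControl replicate 2 or sgNSD3 replicate 1, 3 gamma genes were called in each case. Without sgControl replicate 1, which stood apart, these were Pcdhga7, Pcdhgb1 and Pcdhgb6, and Pcdha5 was still called lower. The call of Pcdhgb1 was kept in only 1 of those 6 fits, and it was lost without a filter on low counts (limma adjusted p = 0.0527) and under quantile normalization (adjusted p = 0.051). Its adjusted p ranged from 0.0167 to 0.122 over all alternatives.

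Other A and B genes had sgNSD3 means above those of sgControl without passing the test. The means were higher in sgNSD3 for 20 of the 22 gamma genes, where 49.9% of all tested genes had a higher mean. The exceptions were Pcdhga1 (26 ± 3.39 against 24.4 ± 3.71) and Pcdhga4 (25.2 ± 6.16 against 21.4 ± 1.75; SD, n = 3, sgControl first). The conditions did not overlap, with sgNSD3 higher, for 9 of 22 gamma genes or 40.9%, beside 14.0% of all tested genes. Besides the 4 called genes of this kind these were Pcdhgb2, Pcdhga5, Pcdhga10, Pcdhgb7 and Pcdhgb8. Gamma genes share constant exons, and how reads there were assigned is not stated, so these counts do not tally independent genes.

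Pcdhgb2 had 119, 132 and 140 normalized counts in sgControl and 167, 154 and 152 in sgNSD3 (limma adjusted p = 0.102). Pcdhga10 had 44.9, 42.1 and 39.6 against 50.6, 58.5 and 63.5 (limma adjusted p = 0.102). Pcdhgb7 had 79.4, 71.8 and 58.9 against 79.6, 86.3 and 95.8 (limma adjusted p = 0.178). In the last of these the gap between the highest sgControl and the lowest sgNSD3 library was under 1 normalized count.

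Pcdhga5 had 243, 242 and 234 normalized counts in sgControl against 286, 257 and 260 in sgNSD3 (limma adjusted p = 0.244). Pcdhgb8, which RefSeq lists as a transcribed pseudogene, had 52.2, 42.1 and 49.7 against 53.7, 56.6 and 63.5 (limma adjusted p = 0.346). Among 7852 tested genes in the same range of mean counts as the A and B genes, 14.4 to 254, 4.56% were called higher, 14.2% did not overlap with sgNSD3 higher, and the median log2 difference was 0.03.

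By subfamily, 3 of 7 B genes and 2 of 12 A genes were called, and 0 of 3 C-type genes. The median log2 difference was 0.33 for B, 0.16 for A and 0.1 for C-type genes. Summed over the B genes, counts were 474, 508 and 503 in sgControl and 645, 626 and 667 in sgNSD3, a ratio of 1.3. For the A genes the sums were 850, 848 and 903 against 1057, 971 and 1044, a ratio of 1.18. In both subfamilies the sums of the conditions did not overlap. The difference between subfamilies was not tested.

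C-type gamma genes differed little. Pcdhgc3 had a log2 difference of 0.03 with a 95% interval from -0.05 to 0.11, so a change of the size seen for Pcdhgb6 lay outside its interval. Pcdhgc5 had 270, 270 and 308 normalized counts in sgControl and 294, 293 and 337 in sgNSD3, with overlap between the conditions (log2 0.13, interval -0.04 to 0.29). Pcdhgc4 had 60.6, 60.3 and 72.1 against 74.4, 63.3 and 68.4 (log2 0.1, interval -0.22 to 0.41), and its wide interval includes the median of the B genes. Summed over the 3, C-type counts were 2179, 2293 and 2244 in sgControl and 2308, 2322 and 2278 in sgNSD3, so the conditions overlapped.

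The sum of the gamma cluster was 3601 ± 84.5 in sgControl and 3973 ± 47 in sgNSD3 (SD, n = 3), a ratio of 1.1. Pcdhgc3 weighs on this ratio: without it the sums were 1709 ± 68.7 and 2047 ± 83.6, a ratio of 1.2. Correspondingly Pcdhgc3 took 52.5% ± 1.37 of gamma counts in sgControl and 48.5% ± 1.61 in sgNSD3 (SD, n = 3). The sum over 12 neuronal markers was 1365 to 1395 in sgControl and 1460 to 1522 in sgNSD3, but single markers differed. Most of it was Map2, which was not called, and Tubb3, a neuronal tubulin, rose 1.66-fold (limma adjusted p = 0.000108). Elavl3 was not called (13.4 against 12.5, sgControl first). Of the markers too low to test, Syt1 was lower in every sgNSD3 library (3.7 against 1.66) and Dcx higher (0 against 1.63). Of 5 endothelial markers, summing to 119.8 to 144.5 in sgControl and 197.4 to 236.8 in sgNSD3, most counts were Kdr, which rose from 115 ± 11.1 to 190 ± 16.8 (SD, n = 3). Tek was not called, Pecam1 (6.63 against 6.69) and Cdh5 (0.319 against 0.326) were too low to test, and Emcn was at 0. The epithelial sum, most of it Krt19, stood lower in sgNSD3, at 3352 to 3366 against 4470 to 5061 in sgControl. Of 5 tested epithelial markers 3 fell (Krt14, Krt18 and Krt19) and 1 rose (Krt7). Of 7 tested fibroblast markers Col1a1, Pdgfrb and Thy1 rose and Pdgfra fell, while their sums overlapped (711900 to 812600 in sgControl, 780800 to 787400 in sgNSD3). The part of these markers in the gamma result was not tested.

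**Figure D3:**
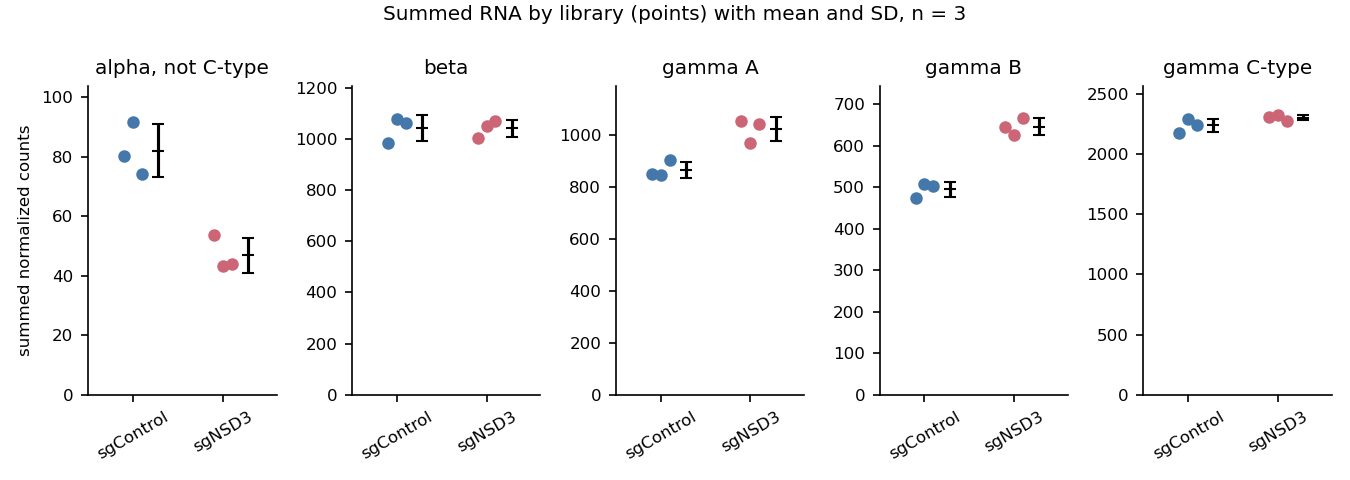
Normalized counts summed over the members of each set, per library (points: sgControl blue, sgNSD3 red), with the mean and SD of 3 libraries in black; each vertical axis starts at 0. Sums of the alpha, gamma A and gamma B sets do not overlap between conditions, while those of the beta and gamma C-type sets do.

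Most alpha genes were close to the limit of detection. Over all 13, tested or not, counts summed to 90.9, 111 and 89.3 in sgControl and 62, 59.4 and 52.8 in sgNSD3, a ratio of 0.598, and the conditions did not overlap. Pcdha5 had 13.6, 20.1 and 18.3 normalized counts in sgControl and 9.3, 5.75 and 2.93 in sgNSD3. All sgNSD3 libraries lay below all sgControl libraries, a 2.89-fold fall with a log2 difference of -1.48 ± 0.371 (SE; limma adjusted p = 0.00685). It passed the filter through its sgControl libraries, since the sgNSD3 mean was 6 ± 3.19 (SD, n = 3). Without any filter the call held, and without sgNSD3 replicate 3, the lowest library, it was lost (limma adjusted p = 0.0668, the highest of a range from 0.00313).

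Pcdha11, to which the most alpha reads were assigned, had 38.6, 45.9 and 28.4 normalized counts in sgControl and 25.8, 19.2 and 27.4 in sgNSD3. Its conditions did not overlap, but it was not called (log2 -0.61 ± 0.232, SE; limma adjusted p = 0.0819). It was called when sgControl replicate 3, its lowest sgControl library, was left out (limma adjusted p = 0.0291). Pcdha12 had 21.9, 19.1 and 19.3 against 14.5, 13.4 and 10.8, again without overlap and not called (limma adjusted p = 0.16).

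These 3 of the 4 tested alpha genes had conditions that did not overlap with sgNSD3 lower, beside 14.4% of all tested genes; genes that low can pass the filter through 1 condition, so the count is a description. Of the C-type genes, Pcdhac2 had 6.27, 14.4 and 9.13 against 5.17, 10.5 and 2.93, with overlap (limma adjusted p = 0.37). Pcdhac1 had 4.18, 4.78 and 6.09 against 3.1, 5.75 and 5.87 and was too low to test. The 9 alpha genes that were not tested had at most 6.09 normalized counts in any library. The epithelial sum, most of it Krt19, was lower in the same sgNSD3 libraries, while Krt7 was higher, as given above. Leukocyte markers summed to 89.8 to 106 in sgControl and 72.9 to 81.1 in sgNSD3 over 6 genes, of which Cd68 and Lyz2 were tested and not called, and Cd3e and Adgre1 were at 0. The part of these markers, and of the fibroblast, neuronal and endothelial ones, in the alpha result was not tested.

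Summed beta counts overlapped between the conditions: 983, 1077 and 1063 normalized counts in sgControl and 1002, 1052 and 1068 in sgNSD3, a ratio of 1. Per kilobase of RefSeq span, Pcdhb22 was highest at 104 ± 6.64 normalized counts (SD over all 6 libraries), followed by Pcdhb19 at 43.9 ± 3.08 and Pcdhb17 at 29.2 ± 2.36. The ranges of these 3 over the libraries did not overlap. Pcdhb18, Pcdhb16 and Pcdhb21 followed, at 17.5, 17.5 and 17.4 per kilobase, with overlapping ranges. Pcdhb14 (14) and Pcdhb20 (13.3) came next, and every other beta gene was at or below 6.1 per kilobase. The 7 genes from Pcdhb16 to Pcdhb22, which end the array, were thus among the 8 highest.

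No beta gene was called, and in none of the 13 tested did the conditions separate. Pcdhb22 had 323, 332 and 339 normalized counts in sgControl and 301, 329 and 286 in sgNSD3 (log2 -0.12, 95% interval -0.27 to 0.03; limma adjusted p = 0.355). Pcdhb19 had 181, 212 and 204 against 217, 205 and 222 (log2 0.11, interval -0.07 to 0.3; limma adjusted p = 0.511). Pcdhb17 had 94, 101 and 86.3 against 106, 88.2 and 96.8 (log2 0.05, interval -0.22 to 0.32; limma adjusted p = 0.871). For these 3 the intervals exclude a change as large as the estimate for Pcdhgb6, log2 0.47, whose own interval ran from 0.25 to 0.69. The intervals of Pcdhb16, Pcdhb18, Pcdhb20 and Pcdhb21 exclude it as well. They do so narrowly for Pcdhb16 (-0.46 to 0.11), Pcdhb20 (-0.39 to 0.44) and Pcdhb21 (-0.39 to 0.45). Those of Pcdhb5 and Pcdhb13 include a rise of that size, with the interval of Pcdhb13 running from -0.16 to 1.04. Those of Pcdhb2, Pcdhb3 and Pcdhb14 include a fall of that size. That of Pcdhb15, from -0.51 to 0.96, includes both.

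Other genes tied to the protocadherins were read from 4 lists. Of 71 tested genes in them, 5 rose (7.04%) and 4 fell (5.63%), close to the 5.44% and 6.44% of all genes, and their median log2 difference was 0. The counts depended on single libraries: without sgControl replicate 3 they were 8 and 2, and without sgNSD3 replicate 1, 2 or 3 they were 3 and 2, 2 and 1, and 2 and 2.

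Genes that flank or separate the clusters showed no call among 21 tested (median log2 -0.01), where 11.9% of all tested genes were called. Taf7 and Slc25a2, which lie between beta and gamma genes, had 220 ± 22.7 and 33.6 ± 5.52 normalized counts in sgControl and 215 ± 3.28 and 29.3 ± 4.7 in sgNSD3 (SD, n = 3). Of 12 nonclustered protocadherins, adhesion proteins encoded elsewhere, 5 were tested and 1 rose, where 5.44% of all tested genes rose. That was Pcdh7, 1.08-fold, from 7779 ± 146 to 8396 ± 22.1 (SD, n = 3; limma adjusted p = 0.00882), a call lost without any 1 of the sgNSD3 replicates.

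Among 25 regulators of the clusters, 3 rose and 1 fell, where 5.44% of all tested genes rose and 6.44% fell. Counts this small within a list are descriptions only. Nipbl, which loads cohesin on DNA, rose 1.17-fold, with 2152, 2134 and 2368 normalized counts in sgControl and 2572, 2615 and 2569 in sgNSD3 (limma adjusted p = 0.00022). Stag2, a cohesin subunit, rose 1.18-fold, with 1372, 1419 and 1485 against 1716, 1635 and 1715 (limma adjusted p = 0.000144). In both genes all sgNSD3 libraries lay above all sgControl libraries, and both calls held without any 1 library. Nsd1, another H3K36 methyltransferase, rose 1.07-fold (limma adjusted p = 0.0239), and Lrif1, a partner of the silencing factor Smchd1, fell 1.23-fold (limma adjusted p = 0.0311). The call of Nsd1 was lost when sgControl replicate 2 was left out, and likewise for each sgNSD3 replicate. That of Lrif1 was lost without sgControl replicate 1 or 3, or without sgNSD3 replicate 2 or 3. Ctcf (1464 ± 66.9 against 1383 ± 42.8) and Smchd1 (1959 ± 76.7 against 2036 ± 49.7; SD, n = 3, sgControl first) were not called.

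Of 20 downstream and processing partners 1 rose and 3 fell, again beside 5.44% and 6.44% of all tested genes. Cyfip2, a subunit of the WAVE complex that drives actin branching, fell 2.53-fold, with 47, 38.3 and 44.7 normalized counts in sgControl and 16.5, 17.3 and 17.6 in sgNSD3 (limma adjusted p = 0.000173). The conditions were far apart, and the call held without any 1 library. Nckap1, another WAVE subunit, rose 1.09-fold (limma adjusted p = 0.0144), with its call lost without sgNSD3 replicate 2 or 3. Brk1, also of this complex, fell 1.1-fold (limma adjusted p = 0.0471). Prkca, a protein kinase C, fell 1.09-fold (limma adjusted p = 0.0481). The calls of Brk1 and Prkca were lost when sgNSD3 replicate 1 or 2 was left out, under quantile normalization (adjusted p = 0.0815 and 0.134) and with voom weights (0.0698 and 0.0954). Both were also lost on log2(normalized count + 1), the scale of the differences given here (limma adjusted p = 0.0523 and 0.0562). The same held with 0.5 added, without a filter on low counts and with the replicate block by description. That of Brk1 was further lost without sgControl replicate 1 or 2 or sgNSD3 replicate 3. That of Prkca was further lost without sgControl replicate 3 and on log2(normalized count + 5). Over all alternatives and left-out libraries, adjusted p reached 0.214 for Brk1 and 0.245 for Prkca.

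For chromatin, the authors' deposited table gives signed scores per gene body, in 1 column for H3K27me3 and 2 for H3K36me2, without the libraries behind them. H3K27me3 is the mark of Polycomb repression and H3K36me2 a mark of NSD enzymes. It is not stated whether a score gives the level of a mark or a difference between the conditions. A positive score is therefore read neither as presence of the mark nor as a change between the conditions. No test was made, and neighbouring genes are not independent. For H3K27me3, 19 of 22 beta gene bodies (86.4%) were above 0 in the authors' deposited table, beside 31.5% of all 22470 gene bodies. The medians were 0.0575 and -0.0258.

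Gene bodies with a RefSeq span in the range of the beta genes, 2340 to 5271 bases, numbered 2140, of which 28.9% were above 0 for H3K27me3 in the authors' deposited table. Of 4553 gene bodies with no read in any RNA library 58.6% were above 0, and of 12615 with tested RNA 18.1%. Among beta genes, 10 of the 13 with tested RNA and 9 of the 9 without it were above 0. The beta share was thus above each of these shares. For the beta genes with tested RNA it was 76.9%, with a 95% interval of 46.2% to 95% that takes genes as independent. That interval includes the 58.6% of gene bodies without reads, but not the 18.1% of those with tested RNA.

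Pcdhb7 and Pcdhb3 had the highest H3K27me3 scores of the beta genes in the authors' deposited table, 0.239 and 0.227, at or above 98.5% and 98.3% of all gene bodies. Pcdhb22 and Pcdhb20 had the lowest, -0.0496 and -0.0313, and Pcdhb17, at -0.0109, was the other beta gene below 0. Pcdhb22 and Pcdhb17 are also among the 3 beta genes with the most RNA. The other of those 3, Pcdhb19, scored 0.0328, at or above 78.4% of all gene bodies. Pcdhb20 had a mean of only 45.1 normalized counts. Across the 22 beta genes Spearman's rho between this score and the RNA level was -0.246, and between the score and the span 0.308. These genes share neighbourhood and sequence, so the coefficients are descriptions only.

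For the other clusters the table holds 1 gene body each. In the authors' deposited table Pcdha2 had an H3K27me3 score of 0.0492, at or above 82.3% of all gene bodies, and Pcdhga9 one of -0.135, at or above 6.49%. The RefSeq spans of these genes are 248457 and 104928 bases and cover many other members, so each score stands for a stretch of its array. Pcdha2 had 0 reads in every RNA library, and Pcdhga9 a mean of 160 normalized counts. For H3K36me2 the authors' deposited table gives Pcdha2 0.103 and 0.211, and Pcdhga9 0.0638 and 0.109, in the first and second column.

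For H3K36me2 the medians of the beta genes were below those of all gene bodies, while single beta genes lay above them. In the authors' deposited table the beta medians were 0.0252 and 0.0711 in the first and second column, against 0.0757 and 0.125 for all gene bodies, and 0.0645 and 0.113 for those of like span. Scores were above 0 for 18 and 16 of 22 beta genes (81.8% and 72.7%), beside 89.4% and 92.4% of all gene bodies. Gene bodies with no read in any RNA library were closer: 76.7% and 80.2% of them were above 0 in the authors' deposited table, with medians of 0.0491 and 0.0799. The beta share was above theirs in the first column and below it in the second, and both beta medians were below theirs.

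The H3K36me2 columns ordered the beta genes differently, with a Spearman's rho of -0.206 over 22 genes. No such coefficient is given here for other gene bodies. In the authors' deposited table Pcdhb16 (0.167) and Pcdhb20 (0.154) were highest in the first column, and Pcdhb14 (-0.0504) and Pcdhb1 (-0.0377) lowest. In the second column Pcdhb4 (0.202) and Pcdhb15 (0.181) were highest, and Pcdhb10 (-0.111) and Pcdhb17 (-0.0855) lowest. Signs were opposite in the 2 columns for 8 of 22 beta genes (36.4%), where 11.4% of all gene bodies had opposite signs.

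**Figure D4:**
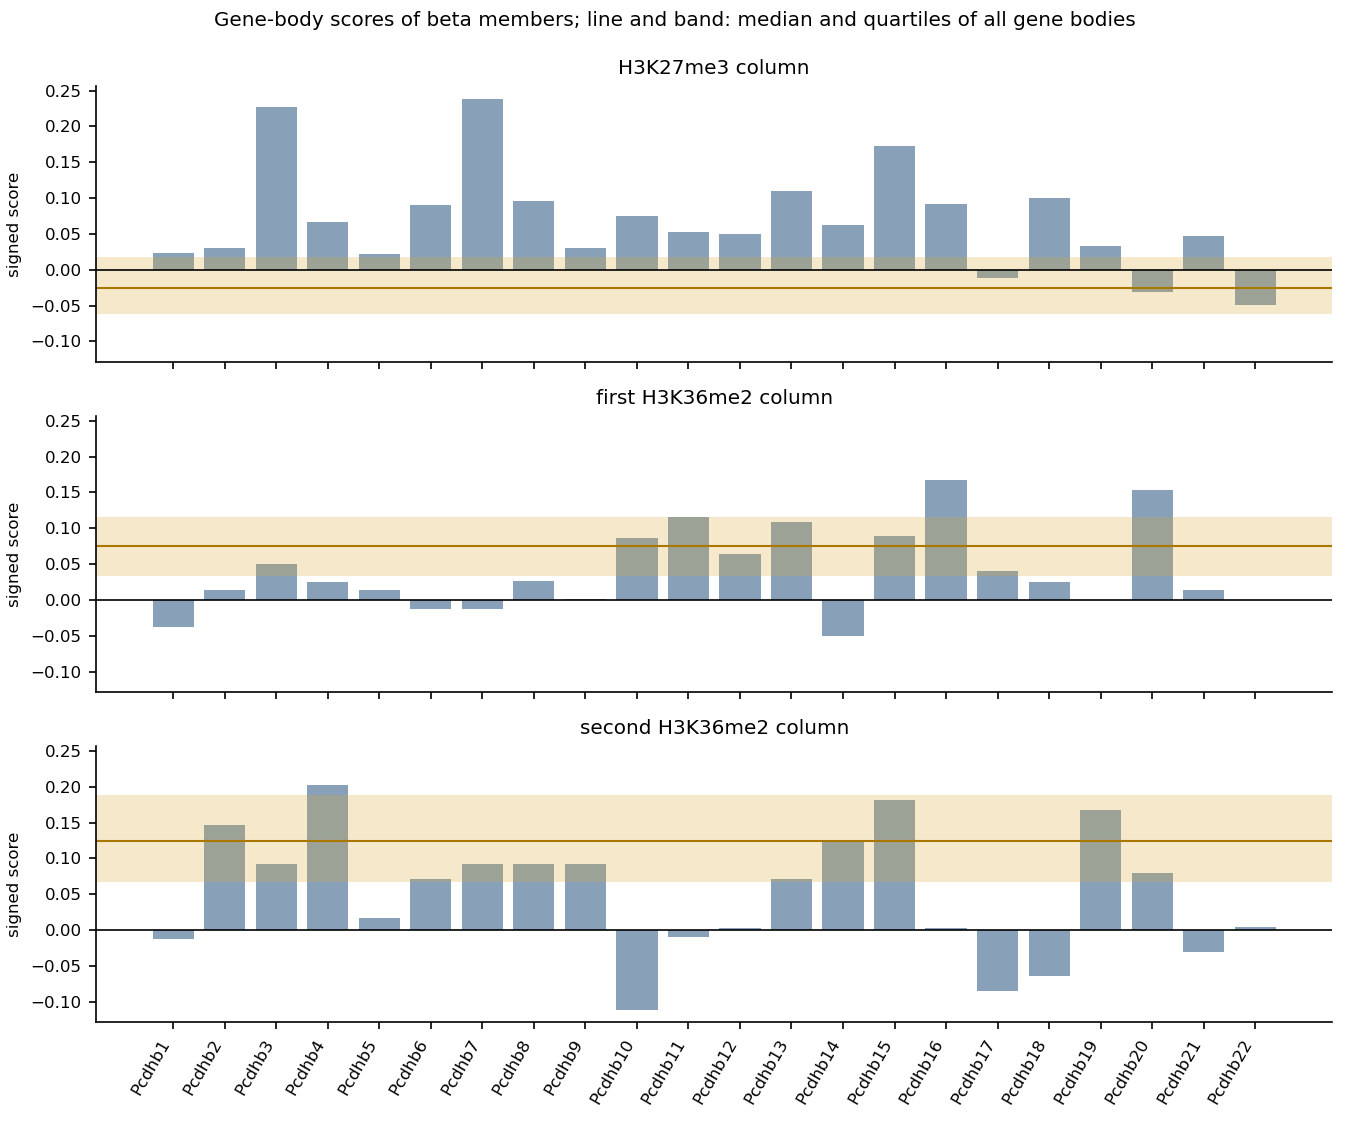
Signed gene-body scores from the authors' deposited table (vertical axes, no unit) of the 22 beta genes in genomic order, 1 panel per column, with the median (line) and quartiles (band) of all 22470 gene bodies. For H3K27me3 19 of 22 bars are above 0 while the line is at -0.0258; the H3K36me2 panels differ from each other in which genes are high.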

How the data were processed

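The RNA table holds values on the variance-stabilised log2 scale of DESeq2, as deposited by the authors. HISAT2, featureCounts and DESeq2 with mm10 are named, without versions or settings, per the submitters' processing notes. The transform was inverted, with a gene without reads at 8.45, which gave whole reads within 0.05 for 100% of values above 0. The chromatin table holds signed scores per gene body as the authors deposited them, and how these were made is not stated per the file headers. There were 0 other value columns.

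All 18263 genes with a mean of at least 8 normalized counts were fitted on the deposited log2 values by limma 3.58.1 under R 4.3.3 (lmFit, then eBayes with trend), and p-values were adjusted by Benjamini-Hochberg (calls at 0.05). Log2 differences, SE and intervals are from a second limma fit, on log2(normalized count + 1), a scale that understates the change of low genes. The fit was tested on simulated data. Alternatives were other filters, pseudocounts, quantile normalization, voom weights, a replicate block and leaving out each library.

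Members and lists were chosen with earlier results of these data known. Named were called members, C-type genes, the 3 members per cluster with the most counts, tested members without overlap, the 2 highest and lowest scores per cluster and column, and up to 4 called genes per list. Other genes named were chosen after their values were seen. IgG libraries were not used here.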

Additional observations from a re-analysis of the deposited data

How the results depend on the processing

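Leaving out each of the 6 libraries in turn gave 1 to 5 protocadherins called higher and 0 to 2 lower, the ranges also of the gamma (1 to 5) and alpha (0 to 2) clusters, and 2 to 8 higher and 1 to 4 lower companion genes. The sign of Pcdhb17 turned in 2 of these fits (range -0.00523 to 0.0293 on the deposited log2 scale). With a minimum of 32 normalized counts 0 protocadherins, and so 0 alpha genes, were called lower, since no alpha gene then entered the test. Companion genes called lower numbered 2 on log2(normalized count + 1), on log2(normalized count + 0.5), with voom weights, under quantile normalization and with the replicate block by the number in the descriptions. Without its most abundant gene the log2 ratio of the gamma sum was 0.26 against 0.142. As means, the beta scores in the authors' deposited table were 0.0696 for H3K27me3 and 0.0402 and 0.0513 for H3K36me2. The cause was not tested. No gene body of a beta gene was at exactly 0 and no C-type gene has a gene body in the table, so those alternatives changed nothing. With a replicate block, by title or by description, 5 protocadherins were called higher and 1 lower, as without it. The numbers did not pair the libraries: deviations of same-numbered libraries correlated at 0.046, 0.0163 and -0.0134 by title and at -0.0663, -0.00654 and -0.0397 by description, and 1 of 3 and 0 of 3 sgNSD3 libraries correlated best with their own number. Counts near the filter limit the alpha and lower beta genes, whose intervals are wide.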

Other observations

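The 9 beta genes too low to test had at most 11.7 normalized counts in any library. For 8 of these 9 the sgNSD3 mean was above the sgControl mean, the exception being Pcdhb1 with 0 reads. These genes were looked at after their values were seen, and the like share among other genes too low to test was not worked out. Some of the differences rest on few reads, such as Pcdhb10 with 1, 1 and 1 reads in sgControl and 2, 1 and 2 in sgNSD3. Pcdhb7 had 5.22, 4.78 and 5.07 normalized counts in sgControl and 7.23, 8.63 and 11.7 in sgNSD3, and Pcdhb8 had 3.13, 2.87 and 1.01 against 5.17, 2.88 and 9.78. Without a filter on low counts none of the beta genes was called by limma.

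Pcdhb7, Pcdhb8 and Pcdhb9 had the same score to 3 digits, 0.0921, in the second H3K36me2 column of the authors' deposited table. A score within 5e-06 of that of Pcdhb8 occurred in 330 of 22470 gene bodies (1.47%), 3 of them beta genes.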
